A study of Mus musculus with 40 samples.

Results

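Chrna4 encodes the alpha 4 subunit of the neuronal nicotinic acetylcholine receptor, and its messenger RNA was followed here through 40 mouse livers in 8 groups. It is 1 gene of 40239 counted in both tables after ribosomal RNA genes were set aside, and 1 of 12942 that passed the filter on low counts. The gene was chosen from its difference between high-fat and control diet in these same mice, so its levels by diet are a description and carry no p-value. Drug comparisons were not the contrast that chose it and were tested. They use the same groups as the diet contrasts, so their p-values are not independent of that choice.

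All mice were labelled as male, of strain C57BL6/J and aged 5 months, and were fed for 3 months from the age of 2 months. Wildtype (WT) mice and mice with PPARγ knocked out in the liver (KO) received either a control diet, the control diet with pioglitazone (Pio), a high-fat diet (HFD, 60% of calories from fat) or that diet with Pio (HFD-Pio), with 5 mice per group and genotype. Pio, a thiazolidinedione agonist of the nuclear receptor PPARγ, was given at 0.01% of the diet by weight. The KO mice carried loxP-flanked PPARγ alleles and Cre under the albumin promoter, which deletes in hepatocytes and leaves the receptor in other liver cells, while the WT mice were bought as C57BL6/J and carried neither element. Each genotype came as a table of its own, the effects of genotype and of table cannot be told apart, and levels were tested only within a genotype.

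Nicotinic receptors are pentameric ion channels that open when acetylcholine or nicotine binds. The alpha 4 subunit usually pairs with beta 2 to form the high-affinity nicotinic receptor of the brain, and the alpha 1, beta 1, delta and epsilon or gamma subunits form the receptor of muscle. Transcription of many hepatic lipid-synthesis genes is known to rise with carbohydrate feeding and insulin and to fall on diets rich in fat. Whole liver was sequenced, in which fewer cells of a type and less RNA per cell cannot be told apart.

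In the GENCODE M21 annotation of GRCm38, Chrna4 (ENSMUSG00000027577) lies on the minus strand of chromosome 2 from 181018380 to 181043546, with 5 transcripts, 4 of them coding, and 8 merged exons that cover 5022 bases. No other gene overlaps it. Col20a1, a collagen gene on the opposite strand, ends 17 bases from the 3′ end of Chrna4, and the strand setting of the counting was not given in the sources used here. The RefSeq promoter window of Chrna4 on GRCm38.p6, chr2:181039128-181039427 on the minus strand, is shown because it holds the RefSeq start of the gene. Reads were counted per gene, so which of the 5 transcripts, or which start, differed between the diets was not tested. Of the 4 coding transcripts of the GENCODE annotation only Chrna4-201 starts inside this window, at 181039305. Chrna4-202, Chrna4-203 and Chrna4-205 start outside it, at 181039075, 181043546 and 181028328. The window runs from 250 bases before to 50 bases after the RefSeq start and is read 5′ to 3′. It has in capitals the GC boxes, GGGCGG on either strand.
Chrna4 promoter: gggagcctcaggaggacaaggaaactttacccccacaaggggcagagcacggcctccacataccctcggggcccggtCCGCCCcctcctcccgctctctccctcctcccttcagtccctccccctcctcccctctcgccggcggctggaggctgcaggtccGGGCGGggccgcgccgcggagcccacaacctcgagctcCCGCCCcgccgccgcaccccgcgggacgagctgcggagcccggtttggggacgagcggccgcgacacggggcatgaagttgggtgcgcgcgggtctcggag
GC content of this window was 74.33%, above that of 95.56% of 32851 mouse promoter windows of the same length, whose median was 52.67%. It held 3 GC boxes, a motif found in 35.7% of the windows, and none of the other motifs searched on both strands: the E-box CACGTG, in 7.15% of windows, the nuclear receptor half-site AGGTCA, in 16.3%, the sterol regulatory element core TCACNCCAC, in 1.24%, and the TATA box TATAAA, in 13.6%. None of these motifs overlapped another in this window. A motif match describes letters and is not evidence of binding.

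Chrna4 transcripts were abundant in the livers of WT mice without HFD and were low in every WT mouse on HFD. Levels are given as CPM, the read count scaled to a common library size with TMM factors, which compares 1 gene between mice. In WT control mice 831 to 835 Chrna4 stood at 74.6, 63.8, 573, 93.6 and 107 CPM. Mice 841 to 845, the WT Pio group, had 207, 230, 391, 300.5 and 325 CPM. Apart from control mouse 833, whose level exceeded theirs, the WT control mice all lay below the lowest of the Pio mice. In WT HFD mice 826 to 830 the level was 13.0, 8.55, 4.55, 2.68 and 16.8 CPM. The WT HFD-Pio mice 836 to 840 had 13.7, 12.5, 5.78, 21.7 and 9.84 CPM. The lowest WT mouse without HFD, at 63.8 CPM, thus lay above the highest WT mouse on HFD, at 21.7 CPM, and the HFD and HFD-Pio groups overlapped.

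KO livers gave a different order. In KO control mice 1 to 5 Chrna4 measured 11.7, 35.5, 5.65, 0.408 and 0.348 CPM, so the gene spanned a 102-fold range within a group that received no treatment. KO Pio mice 11 to 15 stood at 159, 109, 32.1, 10.8 and 53.8 CPM. Among KO HFD mice 6 to 10 the values were 16.4, 9.29, 12.8, 3.19 and 1.88 CPM, inside the range of the KO control mice. The KO HFD-Pio mice 16 to 20 had 38.5, 25.8, 29.6, 16.1 and 15.1 CPM. WT control mouse 833 had 9482 Chrna4 reads, KO control mouse 4 had 9 and mouse 5 had 10. Counting error alone reached 33.3% of the value in the KO control group and at most 14.9% in the other groups, well under the spread between mice.

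**Figure D1:**
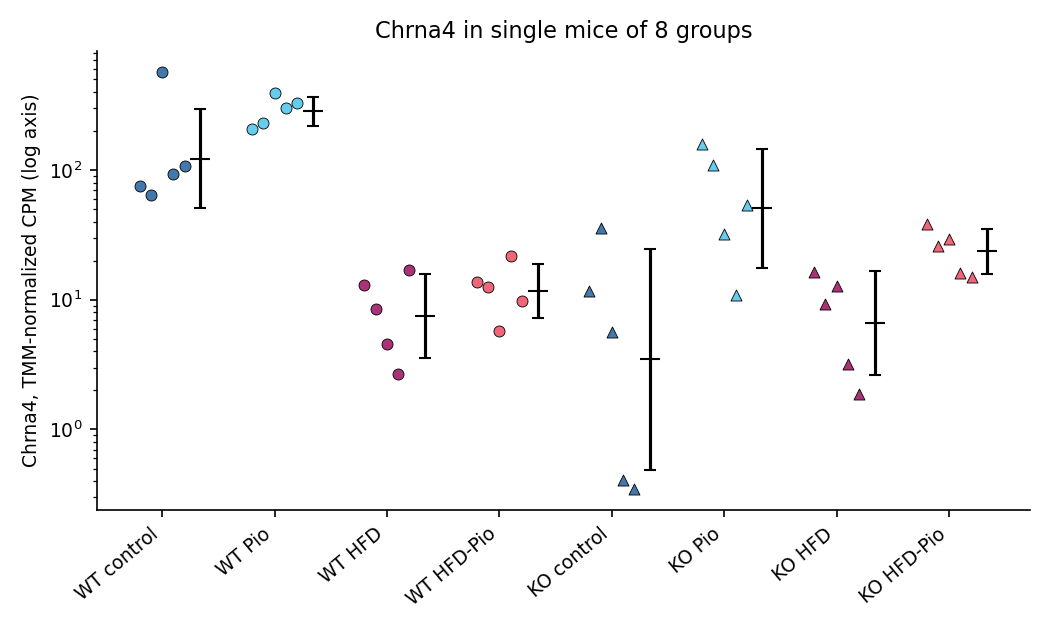
Chrna4 level in each of 40 livers, in CPM on a log axis, by group (control, Pio, HFD, HFD-Pio) for WT and KO mice. Each point is a mouse, and the bars give the mean ± SD of log2 CPM per group of 5. In WT mice all points without HFD lie at or above 63.8 CPM and all points on HFD at or below 21.7 CPM, while the KO groups overlap.

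Mean levels among WT mice were 183 ± 219 CPM (SD, n = 5) on control diet, 291 ± 74.4 with Pio, 9.12 ± 5.85 with HFD and 12.7 ± 5.88 with HFD-Pio. The KO means were 10.7 ± 14.6 in control, 73.0 ± 60.5 in Pio, 8.72 ± 6.20 in HFD and 25.0 ± 9.77 in HFD-Pio mice. Without mouse 833 the WT control mean was 84.9 CPM, and without mouse 2 the KO control mean was 4.54 CPM. Per kilobase of exon, the scale on which genes can be compared, the WT Pio mean was 57.9 ± 14.8 RPKM (CPM divided by exon length in kilobases) and the WT HFD mean was 1.82 ± 1.17 RPKM. Ranked by RPKM among the 12942 genes, the median mouse of the WT Pio group had Chrna4 at percentile 95.0 and that of the WT control group at 85.9, whereas the WT HFD median stood at 36.5 and the WT HFD-Pio median at 45.2. The corresponding KO percentiles were 27.9 in control, 79.0 in Pio, 37.7 in HFD and 63.2 in HFD-Pio mice.

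Ordered by mean log2 CPM, the groups ran from WT Pio (8.15) through WT control (6.94), KO Pio (5.66), KO HFD-Pio (4.56), WT HFD-Pio (3.55), WT HFD (2.92) and KO HFD (2.73) to KO control (1.79). Only the step from KO HFD-Pio to WT HFD-Pio, 1.01 on the log2 scale, exceeded the larger SD of its pair, 0.69, and the ranges of all neighbouring pairs overlapped. Steps between a WT and a KO group also compare separate tables.

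The diet contrast that chose the gene had these sizes, given as log2 fold change ± SE from edgeR's quasi-likelihood fit over all 40 mice. In WT mice HFD against control gave -4.32 ± 0.86, a 20.0-fold lower level, with 5 of 5 HFD mice below all control mice, and it ranked 6 from the lowest of 12942 genes. With Pio in both diets, HFD-Pio against Pio gave -4.51 ± 0.86 in WT mice, 22.8-fold lower, again in 5 of 5 mice, and ranked 3 from the lowest. Without mouse 833 the WT diet value was -3.23, and over all other single omissions it reached -4.67. At an adjusted p of at most 0.05, 0.595% of genes were higher and 0.719% lower in HFD against control in WT mice, and 0.255% were higher and 0.966% lower in HFD-Pio against Pio, which serve here as background only.

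In KO mice the groups overlapped in both diet contrasts, so the description as lower on HFD holds for WT levels. HFD against control in KO mice gave -0.30 ± 0.76, and the value became 0.94 when KO control mouse 2, the highest of its group, was left out. HFD-Pio against Pio in KO mice gave -1.55 ± 0.76, 2.92-fold lower. The background in KO mice was 0.162% of genes higher and 0.0232% lower for HFD against control, and 0.425% higher and 4.54% lower for HFD-Pio against Pio. The difference of the diet effects, KO minus WT, was 4.02 ± 1.11 without Pio and 2.97 ± 1.08 with Pio, both described without a test because they hold the contrast that chose the gene. Against control diet without drug, HFD-Pio gave -3.84 ± 0.83 in WT mice, 14.3-fold lower with 5 of 5 mice below all controls, and 1.22 ± 0.76 in KO mice. Without mouse 833 the WT value was -2.74, and without mouse 2 the KO value was 2.46. The diet effect with Pio minus that without was -0.19 ± 1.07 in WT and -1.24 ± 1.07 in KO mice.

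Drug comparisons asked whether Pio moved Chrna4 on each diet and in each genotype, and they share mice with the diet comparisons and with each other through the common groups. Chrna4 rose with Pio in KO mice on control diet by 2.76 ± 0.80 on the log2 scale, 6.79-fold, at an adjusted p of 0.0304 by quasi-likelihood in edgeR after Benjamini-Hochberg adjustment, with 3 of 5 Pio mice above all control mice. An exact two-sided permutation test of the 5 against 5 log2 levels gave p = 0.0397, where the smallest possible value is 0.00794. In this comparison 7.75% of all genes were called higher and 1.26% lower. The call was lost without KO Pio mouse 13 (2.98, adjusted p = 0.0949), without KO control mouse 1, 3, 4 or 5 (2.45 to 2.80, adjusted p = 0.0571 to 0.0738), without the filter on low counts (2.79, adjusted p = 0.0584) and with KO mice fitted alone (2.78, adjusted p = 0.155). The difference was largest without KO control mouse 2 (4.01, adjusted p = 0.0155) and smallest without KO Pio mouse 11 (2.27), and was positive in all 40 fits that left out a mouse.

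Other drug comparisons of Chrna4 did not pass the edgeR threshold. Pio against control in WT mice gave 0.67 ± 0.74, 1.60-fold, with an adjusted p of 0.703 and an exact permutation p of 0.0635, and 1.78 with mouse 833 left out (adjusted p = 0.217, edgeR). Of all genes, 2.44% were called higher and 1.47% lower there. HFD-Pio against HFD in WT mice gave 0.48 ± 0.77, with an adjusted p of 0.811 and an exact permutation p of 0.310, beside 0.603% of genes higher and 0.479% lower. In KO mice on HFD, Pio gave 1.52 ± 0.77, 2.87-fold, with 3 of 5 HFD-Pio mice above all HFD mice and an exact permutation p of 0.0238. The edgeR p was 0.0563 before and 1.00 after adjustment in that comparison, in which edgeR called 0% of genes higher and 0.0155% lower, 134 genes had an unadjusted p under 0.05, DESeq2 called 0 genes higher and 8 lower, and limma called 0 in either direction. The Pio effect in KO minus that in WT mice was 2.09 ± 1.06 on control diet (adjusted p = 0.20) and 1.04 ± 1.08 on HFD (adjusted p = 0.939, edgeR), so a difference of the drug effect between genotypes was not shown.

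**Figure D2:**
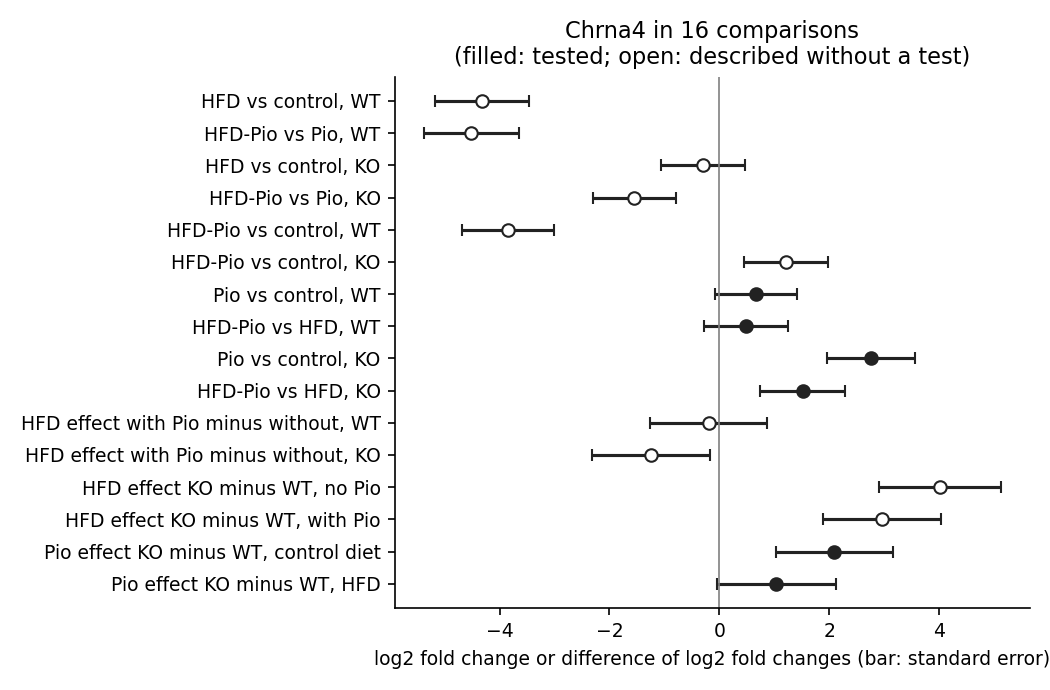
Log2 fold change of Chrna4 in each comparison, with bars of 1 SE from the edgeR fit over 40 mice. Filled points were tested and open points, which hold the diet contrast that chose the gene, are description. The WT diet points lie at -4.32 and -4.51, and of the tested points Pio against control in KO mice lies farthest from 0, at 2.76.

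Variation between mice of the same group was large for this gene. Its edgeR dispersion was 0.639 where the trend at its abundance was 0.0679, which corresponds to a biological coefficient of variation of 0.799 against 0.261. Of 12942 genes 66 had a higher dispersion, and of the 1794 genes at least as abundant as Chrna4, at a mean of 76.6 CPM, 10 did. Within groups the highest mouse exceeded the lowest by 1.89-fold in WT Pio, 2.55-fold in KO HFD-Pio and 3.75-fold in WT HFD-Pio mice, by 6.26-fold to 14.7-fold in WT HFD, KO HFD, WT control and KO Pio mice, and by 102-fold in KO control mice.

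Library totals, ribosomal RNA genes included, ran from 15788242 to 49857017 reads in WT and from 21542958 to 28334251 in KO mice. Marker sums, here and below, are CPM on library totals after rRNA genes were removed, without TMM factors, unlike the Chrna4 levels. KO Pio mouse 13 stood apart, with a median rank correlation to the other mice of 0.780 where other mice had 0.913 to 0.969. It also had a hepatocyte marker sum of 34779 CPM, the lowest of 40. Without it the calls over all genes in Pio against control fell from 1003 higher and 163 lower to 46 and 20 in KO mice, and went from 316 higher and 190 lower to 1088 and 919 in WT mice. Without mouse 13 the diet backgrounds also moved, from 77 higher and 93 lower to 416 and 429 in HFD against control and from 33 and 125 to 454 and 665 in HFD-Pio against Pio in WT mice, and from 55 and 587 to 4 and 8 in HFD-Pio against Pio in KO mice. The cause of these shifts was not tested. WT control mouse 832, the lowest WT mouse without HFD for Chrna4, stood apart in marker sums. On the scale without TMM factors it had the highest stellate cell and fibroblast sum of 40 mice, 860 CPM, and the highest cholangiocyte sum, 148 CPM. Its TMM factor was 1.33, so on the TMM scale these sums would be lower. Its pericentral sum, 2999 CPM, was the lowest of its group. Without mouse 832 the WT control mean of Chrna4 was 212 CPM. All 10 hepatocyte markers were detected, and their sum was 34779 to 157890 CPM. Pparg, which encodes the deleted receptor, had means of 8.59 to 12.4 CPM in the WT and 4.6 to 7.36 CPM in the KO groups, but the gene total includes exons outside the deletion and other liver cells and so does not check the deletion. Pparg passed the test in none of the 8 comparisons by edgeR, with an adjusted p of 0.0558 for Pio against control in KO mice (-0.68).

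Markers of other cells were read beside Chrna4 because the alpha 4 subunit is known from neurons. The 12 neuron and Schwann cell markers summed to 4.38 to 22.1 CPM in every mouse, 1 of them had no reads in any mouse, 2 passed the filter, and in each of the 8 comparisons edgeR called 0 of these, with 0 at an unadjusted p under 0.05. In the WT groups that sum was 9.19 to 13.6 CPM in control and 8.65 to 15.4 CPM in HFD mice. In WT HFD against control, edgeR called 0 of the 10 hepatocyte markers, with 3 at an unadjusted p under 0.05, as had 13.2% of all genes. It called 1 of 12 periportal markers (Hsd17b6, 1.46, adjusted p = 0.0484), 0 of 11 pericentral markers and 1 of 15 clock genes (Hlf, 1.14, adjusted p = 0.0353), beside 0.595% of all genes called higher. There 4 pericentral and 4 periportal markers had an unadjusted p under 0.05, and their lists had median log2 fold changes of 0.29 and -0.16. The median pericentral sum was 6837 CPM in control and 10197 CPM in HFD mice. Periportal medians were 11591 and 8913 CPM, and the ranges of both sums overlapped. In HFD-Pio against Pio in WT mice 0 pericentral and 3 periportal markers had an unadjusted p under 0.05, beside 14.2% of all genes. The part of these markers in the Chrna4 difference was not tested. With Pio in WT mice 4 of 5 tested adipocyte markers rose, namely Cidea (7.89), Cfd (6.88), Retn (5.98) and Fabp4 (3.27), and Adrb3 was not called. Adipoq, Lep and Plin1 of the same list failed the filter, with at most 16, 4 and 58 reads in any mouse. The paper counts Cfd and Fabp4 among liver genes that Pio induced on control diet in WT mice only. Whether these rises came from adipocytes or from other liver cells was not tested. In the same WT comparison Oat, 1 of 11 pericentral markers, rose (1.37, adjusted p = 0.00829, edgeR). Of 15 clock genes 4 rose and 3 fell there, where 2.44% of all genes were called higher and 1.47% lower. In KO Pio mice, where mouse 13 is included, 1 of 11 pericentral markers rose (Tbx3) and 4 fell (Cyp2e1, Oat, Slc1a2 and Gulo). Sds and Eng rose and Apob fell there, beside 7.75% of all genes called higher and 1.26% lower. Of the 11 pericentral markers 7 had an unadjusted p under 0.05 by edgeR, as had 27.6% of all genes. The pericentral sum was 2681 to 7443 CPM in KO Pio and 7977 to 13047 CPM in KO control mice. Every KO Pio mouse, mouse 13 and the others, thus lay below every KO control mouse. The part of these markers in the Chrna4 rise was not tested. In HFD-Pio against Pio in KO mice 4 of the 11 pericentral markers rose (Cyp2e1 by 1.18, Oat by 1.28, Slc1a2 by 0.98 and Gulo by 0.71, edgeR), beside 0.425% of all genes. In that comparison 9 of 11 had an unadjusted p under 0.05, as had 24% of all genes. The part of these markers in the lower Chrna4 level of that comparison was not tested.

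Most other nicotinic subunits had few or no reads in liver. Of 16 listed subunits 4 passed the filter, namely Chrna4, Chrna2, Chrnb2 and Chrnb1. Chrna3, Chrnb3 and Chrnd had no reads in any of the 40 mice. No other untested subunit passed 0.694 CPM, on library totals without TMM factors, in any mouse, the value of Chrne. Chrnb2, the usual partner of alpha 4, averaged 3.72 ± 0.88 CPM in WT mice on control diet, 4.89 ± 1.26 with Pio, 5.66 ± 1.42 with HFD and 4.81 ± 0.67 with HFD-Pio. Chrnb1, the beta subunit of the muscle receptor, had means of 1.58 ± 1.00, 0.939 ± 0.19, 1.44 ± 0.32 and 0.931 ± 0.23 CPM in the same order. Neither Chrnb2 nor Chrnb1 passed the edgeR test in any of the 8 comparisons, where the nearest were Chrnb1 with Pio (-0.75, adjusted p = 0.153) and Chrnb2 with HFD (0.60, adjusted p = 0.186) in WT mice.

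Chrna2, which encodes the alpha 2 subunit, stood in the opposite order to Chrna4 under HFD. In WT control mice 831 to 835 it measured 7.49, 3.95, 4.29, 6.32 and 5.40 CPM. WT HFD mice 826 to 830 had 19.4, 12.0, 18.7, 22.9 and 16.5 CPM, all above every control mouse. The WT Pio mice 841 to 845 had 16.5, 29.2, 15.4, 20.5 and 28.2 CPM, also above every control mouse. WT HFD-Pio mice 836 to 840 had 23.6, 39.6, 19.6, 23.0 and 24.3 CPM. By edgeR, Chrna2 rose in WT mice with HFD (1.70 ± 0.34, adjusted p = 0.00600) and with Pio (2.00 ± 0.34, adjusted p = 0.000454), against the same 5 control mice, and both calls held in all 40 fits that left out a mouse, at 1.60 to 1.81 and 1.87 to 2.13. HFD-Pio against Pio (0.25, adjusted p = 0.799) and HFD-Pio against HFD (0.54, adjusted p = 0.441) did not pass. KO means were 9.53 ± 3.11, 6.13 ± 3.36, 8.24 ± 3.03 and 8.09 ± 1.33 CPM in control, Pio, HFD and HFD-Pio mice, with no call.

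On the RPKM scale Chrna4 made up most of the summed nicotinic subunit level in some groups and little in others. Its share was 81.5 to 98.0% (median 87.5%) in WT control and 83.7 to 93.8% (median 88.7%) in WT Pio mice. On HFD the WT share was 6.55 to 36.5% (median 28.1%), and on HFD-Pio it was 15.5 to 38.2% (median 20.6%), where Chrna2 held a median of 58.7% and 67.6%. The share in KO mice was 1.54 to 72.9% in control, 39.5 to 92.6% in Pio, 10.8 to 49.3% in HFD and 52.4 to 75.5% in HFD-Pio mice. Chrna4 thus went from the leading subunit by RPKM to a lesser one between the WT diets, a description that includes the contrast which chose the gene.

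**Figure D3:**
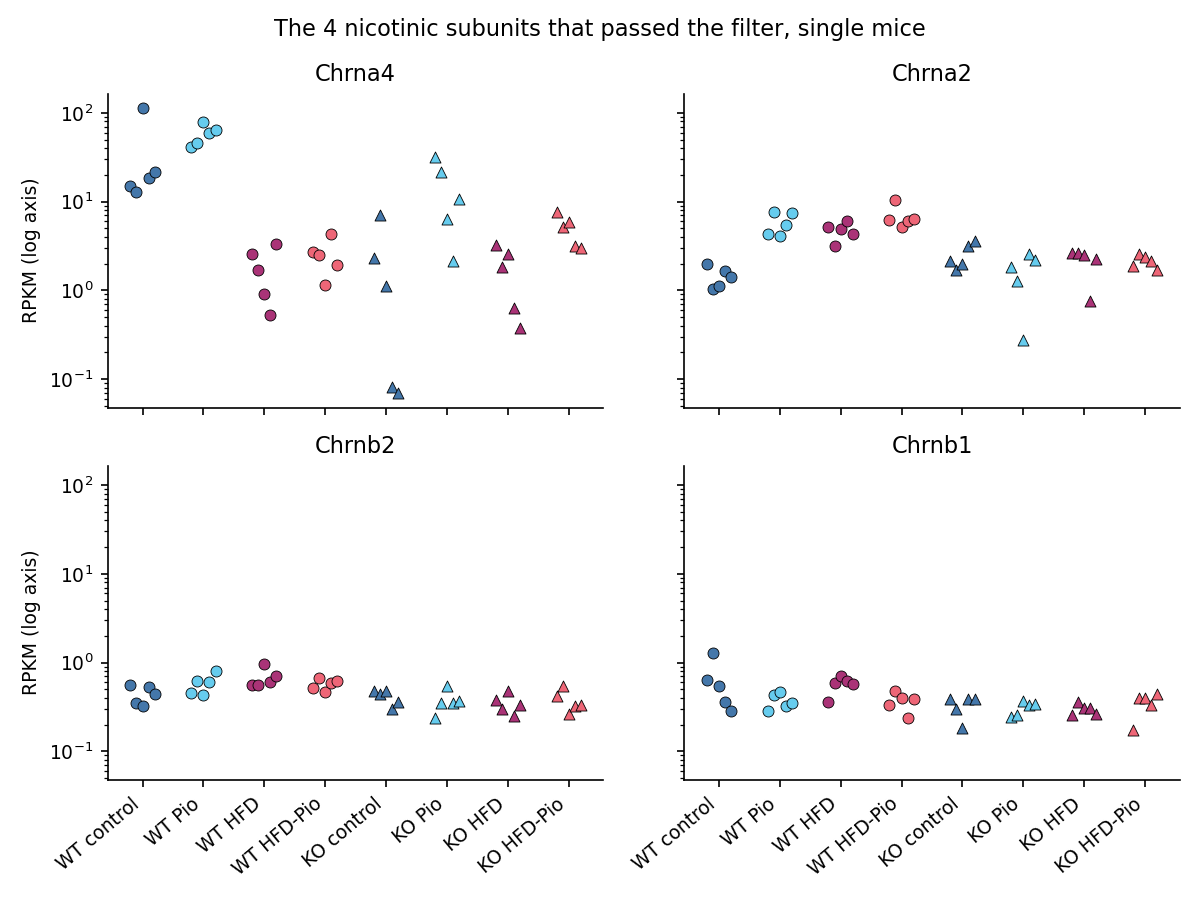
Level of the 4 nicotinic subunit genes that passed the filter, in RPKM on a log axis, with a point per mouse by group. Chrna4 lies below Chrna2 in all WT mice of the HFD and HFD-Pio groups, where Chrna2 has median shares of 58.7% and 67.6%, and above it in all WT mice without HFD.

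Other genes of acetylcholine signalling were counted from lists of regulators, metabolism, muscarinic receptors and related channels. Together with the nicotinic subunits other than Chrna4, the 5 lists held 70 genes, of which 14 passed the filter. By edgeR 1 of these 14 was called in HFD against control in WT mice (Chrna2), where 0.595% of all genes were called higher. In Pio against control in WT mice 2 were called (Chrna2 and Bche), where 2.44% of all genes were called higher. In these 2 comparisons 3 and 4 of the 14 had an unadjusted p under 0.05 by edgeR, as had 13.2% and 17.9% of all genes. In HFD-Pio against Pio in WT mice edgeR called 0 of the 14, with 2 at an unadjusted p under 0.05 where 14.2% of all genes had one. There DESeq2 called 2 of the 14 and 2.94% of all genes, and limma 3 of the 14 and 22.7% of all genes, so the limma count was near its background. In HFD-Pio against HFD in WT mice edgeR and DESeq2 called 0 and limma 3, beside 8.4% of all genes by limma, and 4 had an unadjusted p under 0.05, as did 15.6% of all genes. Among the KO comparisons edgeR and DESeq2 called 0 of the 14 in each of the 4. There limma called 1 in Pio against control (9.4% of all genes), 1 in HFD-Pio against Pio (2.39%) and 0 in the others. By edgeR 2 had an unadjusted p under 0.05 in Pio against control in KO mice, where 27.6% of all genes had one, and 0 in the other KO comparisons. Without mouse 13 the edgeR counts for WT mice were 1 with HFD, 2 in HFD-Pio against Pio, 3 with Pio and 3 in HFD-Pio against HFD, beside 6.55%, 8.68%, 15.6% and 11.6% of all genes in either direction. The median log2 fold change of the 3 tested nicotinic subunits other than Chrna4 was 0.60 in HFD against control, 0.39 in Pio against control, 0.0042 in HFD-Pio against Pio and -0.23 in HFD-Pio against HFD in WT mice. In KO mice it was -0.21, -0.15, 0.17 and 0.11 in the same order. Over all genes the median lay between -0.022 and 0.029 in each of the 8 comparisons.

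Bche encodes butyrylcholinesterase, the serum esterase made in liver that hydrolyses acetylcholine and other choline esters. It averaged 55.7 ± 11.7 CPM in WT mice on control diet, 105 ± 9.80 with Pio, 62.9 ± 20.1 with HFD and 102 ± 15.8 with HFD-Pio. Bche rose with Pio in WT mice by 0.92 ± 0.24 (adjusted p = 0.0227, edgeR), a call lost without WT control mouse 831 or 833 or WT Pio mouse 845. Chat, the enzyme that makes acetylcholine, had no reads in any mouse, and Ache, which breaks it down at synapses, stayed at group means of 0.599 to 1.45 CPM. Of the Ly6 proteins that bind nicotinic receptors, Lynx1 gave -1.02 ± 0.33 with HFD (adjusted p = 0.115, edgeR) and Ly6e -0.98 in HFD-Pio against Pio (adjusted p = 0.0559, edgeR) in WT mice. DESeq2 called Lynx1 and Ly6e lower in HFD-Pio against Pio in WT mice.

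Genes next to Chrna4 were read in the same way, to see whether the stretch around it differed with diet. Of 27 genes within 250 kb, 9 passed the filter. By edgeR 0 of 9 were called in each of the 4 diet comparisons. In HFD-Pio against Pio in WT mice 2 had an unadjusted p under 0.05, beside 14.2% of all genes. The same comparison in KO mice had 2, beside 24% of all genes, and the others had 0. DESeq2 called 1, in HFD-Pio against Pio in KO mice, beside 7.82% of all genes, and limma called 2, in HFD-Pio against Pio in WT mice, beside 22.7% of all genes, a share near that of the neighbours. Col20a1, the nearest, had 2.60 ± 0.76 CPM in WT control and 3.62 ± 0.95 CPM in WT HFD mice (0.48, adjusted p = 0.576, edgeR). With Pio in WT mice Ythdf1, a reader of N6-methyladenosine in RNA, fell by 0.52 (SE 0.15, adjusted p = 0.0394) and Gmeb2, a transcription regulator, fell by 0.37 (SE 0.11, adjusted p = 0.0437) in edgeR, beside 1.47% of all genes called lower, and the calls were lost in 9 and 17 of the 40 fits that left out a mouse. Ppdpf passed the edgeR test in Pio against control in KO mice (1.21 ± 0.39, adjusted p = 0.0439) beside 7.75% of all genes called higher, but mouse 13 stood at 144 CPM and the other 4 Pio mice at 14.3 to 20.3 CPM, and without mouse 13 the value was -0.05 (adjusted p = 0.978). In HFD-Pio against HFD edgeR, DESeq2 and limma called 0 of 9 in both genotypes. By edgeR 3 had an unadjusted p under 0.05 in WT mice, beside 15.6% of all genes, and 0 in KO mice. For Pio against control 3 of 9 had an unadjusted p under 0.05 in WT mice, beside 17.9% of all genes. In KO mice 5 of 9 had one there, beside 27.6% of all genes. In that comparison limma called 3 of 9 in WT and 2 of 9 in KO mice, beside 23.9% and 9.4% of all genes. DESeq2 called 2 and 1, beside 6.28% and 11%. Without mouse 13 edgeR called 2 in WT and 0 in KO mice, beside 15.6% and 0.512%.

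**Figure D4:**
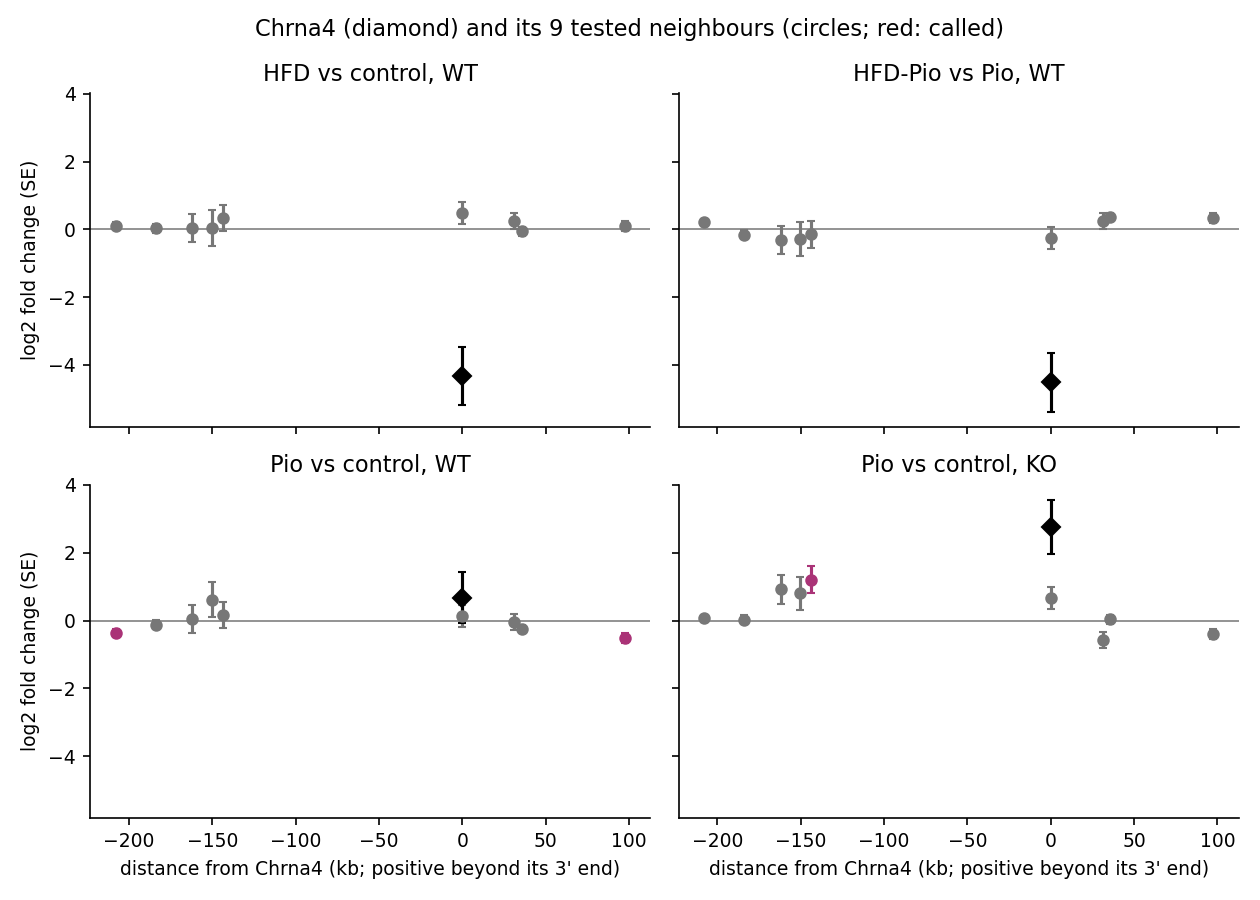
Log2 fold change with bars of 1 SE for the 9 tested genes within 250 kb of Chrna4, and for Chrna4 itself, against distance from Chrna4 in kb, in 4 comparisons. Chrna4 lies at -4.32 and -4.51 in the WT diet panels and at 2.76 in the KO Pio panel, and the Ppdpf point at 1.21 in the KO Pio panel rests on mouse 13.

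Genes whose level followed Chrna4 most closely from mouse to mouse were named by Spearman's rho of log2 CPM, over the 20 WT mice and the 20 KO mice separately. Both genes of a pair are read from the same libraries, so each point shares its depth and normalisation, and these genes were picked for the correlation, so no test is given. WT mice fall into separate diet clusters for Chrna4, and the rho over 20 WT mice therefore serves only to name genes. Over 12941 genes the median rho was 0.000 in WT and -0.0030 in KO mice, and 27 genes reached 0.7 in both. The 5 highest were Pnpla3, Fads1, Acss2, Tlcd1 and Lmntd2.

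Pnpla3 encodes a lipid-droplet protein of hepatocytes whose transcription is driven by the lipogenic factor SREBP1c. Its rho with Chrna4 was 0.891 over the 10 WT mice without HFD, 0.648 over the 10 WT mice on HFD, 0.964 over the 10 KO mice without HFD and 0.915 over the 10 KO mice on HFD. Each set of 10 joins mice with and without Pio, so these values, and those for the genes below, include drug differences. In WT control mice 831 to 835 Pnpla3 stood at 45.7, 13.6, 169.6, 23.6 and 36.3 CPM, so mouse 833 was the highest and mouse 832 the lowest for both genes. WT HFD mice 826 to 830 had 3.25, 3.15, 1.77, 1.27 and 2.40 CPM. KO control mice 1 to 5 had 4.17, 11.8, 1.39, 0.77 and 0.49 CPM, with mouse 2 highest and mice 4 and 5 lowest, as for Chrna4. KO Pio mice 11 to 15 had 40.4, 61.3, 25.0, 11.4 and 28.5 CPM. Over all 8 groups Pnpla3 means were 57.7 ± 63.7, 131 ± 50.1, 2.37 ± 0.86 and 6.91 ± 4.70 CPM in WT and 3.73 ± 4.76, 33.3 ± 18.7, 0.902 ± 0.29 and 3.06 ± 1.92 CPM in KO control, Pio, HFD and HFD-Pio mice.

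Acss2 makes acetyl-CoA from acetate in the cytosol and Fads1 is the delta-5 fatty acid desaturase. Acss2 had a rho with Chrna4 of 0.855 in WT mice without HFD, 0.685 in WT mice on HFD, 0.952 in KO mice without HFD and 0.758 in KO mice on HFD. Its means were 438 ± 279, 638 ± 165, 139 ± 20.4 and 186 ± 57.9 CPM in WT control, Pio, HFD and HFD-Pio mice. The 4 values for Fads1 were 0.661, 0.879, 0.842 and 0.867. Tlcd1, a membrane protein, had 0.758, 0.564, 0.818 and 0.794, and Lmntd2 had 0.830, 0.370, 0.988 and 0.515 at only 1.12 to 4.49 CPM in group means. For Pnpla3, Pearson's r with the 2 mice farthest from the Chrna4 median left out was 0.953 in WT and 0.818 in KO mice. These values pool both diets, and the WT value holds the diet split that chose the gene. After group means were subtracted, r without the 2 farthest mice was 0.729.

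Subtracting group means removes the mean differences by diet, drug and genotype but leaves differences in spread. The SD of log2 CPM of Chrna4 ran from 0.37 in WT Pio to 2.83 in KO control mice. After that subtraction the highest rho over 40 mice was that of Sc5d (0.881), a late enzyme of cholesterol synthesis. Acly (0.862), which makes cytosolic acetyl-CoA from citrate, Lmntd2 (0.814), Rdh11 (0.810), a retinal reductase, and Acss2 (0.806) followed. Pnpla3 had 0.763 on this measure, and 30 of 12941 genes reached 0.7 where the median was 0.0038. Acly means were 1122 ± 671, 1268 ± 329, 294 ± 84.3 and 324 ± 81.9 CPM in WT control, Pio, HFD and HFD-Pio mice, and mouse 833 was again the highest WT control mouse for Acly, Acss2, Sc5d, Rdh11, Tlcd1 and Lmntd2. Sc5d means were 567 ± 184, 906 ± 69.5, 423 ± 102 and 511 ± 61.4 CPM in the same groups. With the 2 mice farthest from the Chrna4 median left out, r over the KO mice was 0.332 for Sc5d and 0.262 for Rdh11, against 0.561 and 0.565 over all 20. Their rho over the 20 KO mice was 0.662 and 0.638, and without mouse 13 it was 0.812 and 0.782. Over the 10 KO mice without HFD rho was 0.782 and 0.770, and over the 10 on HFD 0.745 and 0.552.

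At the other end, Ttll8, Mug1 and Igfbp4 were among the genes with the lowest rho in both genotypes. Mug1, a protease inhibitor of mouse plasma made in liver, averaged 1579 ± 404 CPM in WT mice on control diet, 1365 ± 294 with Pio, 2440 ± 541 with HFD and 2044 ± 370 with HFD-Pio. Its rho with Chrna4 was -0.188 and -0.406 within the WT mice without and with HFD, -0.758 and -0.430 within the corresponding KO mice, and -0.259 after group means were subtracted. The lowest after subtraction were Rab11fip4 (-0.689), Slc22a5 (-0.623), Sbno2 (-0.614), Rsad1 (-0.608) and Cxcl1 (-0.608). Slc22a5, the carnitine transporter, had a rho of -0.152 and 0.358 within the WT mice without and with HFD, and -0.685 and -0.539 within the corresponding KO mice. In the same order Rsad1 had 0.212, -0.212, -0.806 and -0.297, and Cxcl1 had 0.018, -0.236, -0.127 and 0.042. Rab11fip4 and Sbno2 were below 0 in each of these subsets.

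**Figure D5:**
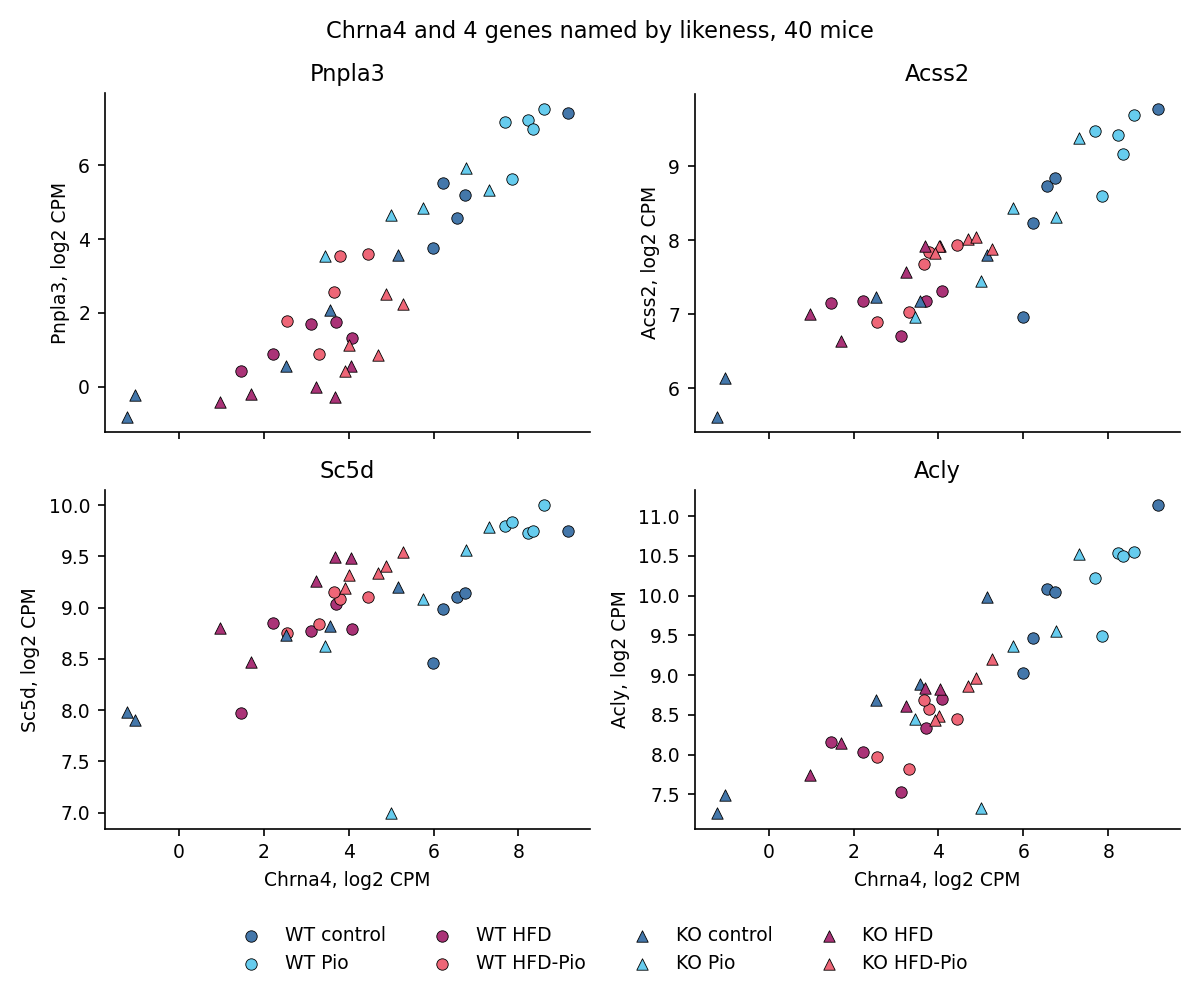
Log2 CPM of Pnpla3, Acss2, Sc5d and Acly against log2 CPM of Chrna4, with a point per mouse coloured by group. The 4 genes tend to be high where Chrna4 is high, with a rho of 0.964 for Pnpla3 over the 10 KO mice without HFD.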

How the data were processed

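Liver RNA of 40 mice was sequenced. The authors aligned the reads to GRCm38 and deposited gene-level read counts in 1 table per genotype, without normalisation. The submitters' processing notes name STAR 2.0.4b, Subread and featureCounts 1.4.5. Samples were grouped by their labels, and each replicate was a separate mouse. Both tables listed 40594 genes, from which 355 for rRNA were dropped, and 598 KO and 574 WT repeated lines, identical to their first entry, were counted once. The 12942 genes that reached 1 CPM in 5 or more mice went into edgeR 4.0.16 (quasi-likelihood, robust, TMM factors, 8 group means in 1 fit, R 4.3.3), with Benjamini-Hochberg adjustment within each comparison and calls at an adjusted p of at most 0.05. DESeq2 1.42.0, limma 3.58.1 with voom quality weights, other normalisations, no filter, each genotype alone and each mouse left out were alternatives. The fit was tested on simulated data. RPKM used merged GENCODE M21 exon lengths, and log2 CPM a prior count of 2. Library totals of 15788242 to 49857017 reads left counting error below the spread between mice. Named genes were Chrna4, Pparg, tested members of the cholinergic lists, tested neighbours within 250 kb, and the 5 genes with the highest and lowest rho to Chrna4 in both genotypes and within groups. Of these, 2 genes are not reported here. The members and lists were chosen with earlier results of these data known. No comparison of WT with KO levels was tested, since each genotype has its own table. Other markers and genes named in the text were added where edgeR called them.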

Additional observations from a re-analysis of the deposited data

Results flagged for a closer look

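WT control mouse 833 had 573 CPM of Chrna4 where the other 4 mice of its group had 63.8 to 107 CPM. The gap to the nearest mouse was 0.914 of the range of the group, above Dixon's limit of 0.71 for 5 samples. Among groups of 5 normally distributed values chance flags about 1 in 20. The rule was applied to CPM without a log transform, so the chance rate for these groups is not known. Of the 8 groups 1 was flagged here. The marker sums of this mouse, on library totals without TMM factors, were 110775 CPM for hepatocytes, 12.1 CPM for neurons and Schwann cells and 30.3 CPM for adipocytes. On that scale the hepatocyte sum was the median of its group. No technical or biological reading of this value was tested.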

How the results depend on the processing

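Over single omissions of a mouse, the diet values of Chrna4 ran from -4.67 to -3.23 (HFD against control, WT), -4.79 to -4.34 (HFD-Pio against Pio, WT), -0.66 to 0.94 (HFD against control, KO, above 0 without KO control mouse 2), -1.82 to -1.05 (HFD-Pio against Pio, KO), -4.11 to -2.74 (HFD-Pio against control, WT) and 0.90 to 2.46 (the same, KO). Drug values ran from 0.46 to 1.78 (Pio, WT), 0.22 to 0.83 (Pio on HFD, WT), 2.27 to 4.01 (Pio, KO, adjusted p from 0.0104 to 0.0949) and 1.26 to 1.88 (Pio on HFD, KO). The diet effect with Pio minus that without ran from -1.29 to 0.15 in WT and -2.49 to -0.75 in KO mice, the KO minus WT diet effect from 2.93 to 5.26 without and 2.69 to 3.47 with Pio, and the KO minus WT drug effect from 1.00 to 3.33 on control diet and 0.69 to 1.4 on HFD.

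With limma, HFD against control in KO mice was 0.72 in place of -0.30. Pio against control in KO mice no longer passed without the filter on low counts (2.79, adjusted p = 0.0584) or with each genotype fitted alone (2.78, adjusted p = 0.155), and over the alternatives other than omissions its adjusted p ran from 0.00770 to 0.155. Calls in the cholinergic lists over the diet comparisons numbered 1, with 3 by DESeq2, 5 by limma and 2 with each genotype alone, and 1 to 3 over omissions. Over the drug comparisons they numbered 2, with 9 by limma and 1 to 6 over omissions. Neighbours called over the diet comparisons numbered 0, with 1 by DESeq2, 2 by limma and 0 to 1 over omissions, and over the drug comparisons 3, with 1 by upper-quartile factors, 5 by limma, 0 without the filter and 1 to 5 over omissions. Ppdpf in KO mice with Pio was -0.028 by limma, and -0.053 to 1.48 over omissions, lowest without mouse 13. Of the 5 genes with the highest rho in both genotypes, 3 remained with Pearson's r, 3 without the 2 farthest mice and 2 without mouse 13. Of the 5 lowest, 0 remained with Pearson's r and 2 without the 2 farthest mice. Within groups 2 of the 5 highest remained with Pearson's r, and 2 of the 5 lowest without the 2 farthest mice. The causes were not tested.

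No paired analysis was possible because mouse numbers are unique and shared by no groups. Depth limits the KO control mice 4 and 5, with 9 and 10 reads.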
